A study of Mus musculus with 6 samples.

Results

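The type 17 programme of innate-like lymphocytes was followed through 9 genes, Il17a, Il17f, Il23r, Il1r1, Ccr6, Blk, Maf, Sox13 and Cd163l1, chosen by name among the 32287 genes listed in the matrix. Il17a and Il17f encode the cytokines IL-17A and IL-17F. Il23r and Il1r1 encode receptors for IL-23 and IL-1, and Ccr6 encodes the receptor for CCL20. Blk encodes a Src-family kinase, Maf and Sox13 encode transcription factors, and Cd163l1 encodes a scavenger receptor of the CD163 family. All 9 genes were in the matrix.

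Type 17 innate-like lymphocytes are T cells that acquire the capacity to make IL-17 while still in the thymus and then settle in barrier tissues and lymph nodes. The best known are γδ T cells, which include a population with a Vγ6 receptor, and they are joined by αβ T cells of restricted receptor usage such as MAIT cells and some NKT cells. IL-23 and IL-1 made by myeloid cells drive IL-17 release from these cells without a need for fresh priming, and c-MAF, the product of Maf, is needed for their development. In lymph nodes they sit close to the sinuses and to CD169+ macrophages.

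The data were a CITE-seq experiment, in which mRNA molecules, counted as UMIs, and bound antibodies that carry DNA tags are read from each cell. The cells were CD11b hi TOM+ lymph node cells sorted from Cd169Cre/+ Tdtomatofl/fl (CD169Tom) mice, in which Cre is made under control of the Siglec1 (CD169) gene and the red protein TOM serves as a heritable lineage tag of cells with past or present CD169 expression. The 2 unimmunized mice and the 2 mice immunized with hen egg lysozyme 9 days earlier all carried both alleles, each mouse had its own hashtag, and cells of all mice were pooled and loaded in 2 captures. No test took cells as replicates. The edgeR fits below took each class of each mouse as a library, with no term for the mouse in the main fit. Tests of shares and antibodies took the mouse as the replicate. Pooled ratios and pooled shares of cells combine the mice and carry no spread between them.

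Of 18662 barcodes, 12139 cells were kept and assigned to a mouse, 2828 and 537 from unimmunized mice 1 and 2 and 4052 and 4722 from immunized mice 1 and 2. The 621 barcode sequences that occurred in both captures, 1242 barcodes in all, were left out because the hashtag and antibody tables did not say which capture they came from. Levels are CPM, UMIs of a gene scaled to a common total, summed over the cells of a class in a mouse. UMIs come from the 3′ end of each mRNA, and levels were compared between cells for a gene, not between genes.

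The sort was aimed at myeloid cells, and 1310 of the kept cells (CD3 cells) nonetheless sat in T-like or NK-like clusters with at least 2 UMIs of Cd3d, Cd3e and Cd3g. By their receptor constant genes, 211 were γδ CD3 cells with Trdc and without Trac, 796 were αβ CD3 cells with Trac and without Trdc, and 303 were other CD3 cells with neither or both. A further 331 cells were NK-like, with no CD3 UMI, and 6004 belonged to 9 named myeloid-like classes. Clusters left unnamed by the marker lists were in no class. The largest were led by Tmem176a (1568 kept cells), Spon1 (933), Cxcl10 (464), Cd209a (463), Nrgn (288) and Il22ra2 (208). Of the γδ CD3 cells 174 fell in a single cluster led by Trdc, Cd163l1 and 5830411N06Rik, 10 in a T-like cluster led by Cxcr6, 10 in a T-like cluster led by Dapl1, 12 in a T-like cluster of high UMI counts and 5 in the NK-like cluster. Neither the 9 genes nor the longer type 17 list below was among the genes used for clustering.

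The label of the sort was checked against these cells. TOM mRNA was counted in 0.948% of γδ CD3 cells, with 2 UMIs in all, against 5.73% of myeloid-like cells. Siglec1 stood at 7.96 CPM in γδ CD3 cells against 28.8 CPM in myeloid-like cells, and Itgam, which encodes CD11b, at 25.3 against 128 CPM. Lyz2, a myeloid gene, was counted in 98.1% of γδ CD3 cells at 2580 CPM against 19280 CPM in myeloid-like cells. Single values in this paragraph pool the 4 mice. Unimmunized mouse 1 gave 173 of the 211 γδ CD3 cells, and the immunized mice gave 1974 and 2769 of the 6004 myeloid-like cells. Median UMIs per cell were 5715 and 10050, so shares of cells with a UMI were not compared at equal depth. The classes thus also differed in condition and depth. Marker genes of medullary sinus macrophages (MSMs) summed to 98.7 to 270.0 CPM in the γδ CD3 cells of the 4 mice, with 3 to 7 of the 7 markers above 0, against 2234 CPM in MSM-like cells. Markers of C1q macrophages summed to 68.8 to 157 CPM, with 2 to 8 of 10 markers above 0, against 5925 CPM in C1q macrophage or TBM-like cells. Whether the myeloid RNA in the lymphocytes was free RNA or came from attached myeloid material was not tested.

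The genes lie on several chromosomes (GRCm38, GENCODE M21). Il17a (chr1:20730905-20734496, plus strand) and Il17f (chr1:20777146-20790617, minus strand) are neighbours with 42649 bases between them. Il1r1 (chr1:40225080-40317257, plus) and Sox13 (chr1:133382303-133424377, minus) are on the same chromosome, Il23r is at chr6:67422932-67491855 (minus), Cd163l1 at chr7:140218267-140231145 (plus), Maf at chr8:115682942-115707794 (minus), Blk at chr14:63372836-63417037 (minus) and Ccr6 at chr17:8236043-8257141 (plus). A further gene of the CD163 family, 5830411N06Rik, lies 16138 bases from Cd163l1, so reads shared between these relatives could be split differently by another counter. Il1r1 overlaps Gm38070 on the same strand and Maf overlaps Gm15655 on the other.

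The 250 bases upstream of the annotated start are shown, 5′ to 3′ on the gene's own strand (RefSeq, GRCm38.p6), for 5 genes, namely the 4 with a match to the letters AGGTCA, the core letters of sites bound by many nuclear receptors, and Cd163l1, a gene of the set without a match. Capitals mark AGGTCA or its reverse complement TGACCT. Il17a, Ccr6 and Cd163l1 are on the plus strand and Il17f and Il23r on the minus strand. The windows are chr1:20730655-20730904 (Il17a), chr1:20784271-20784520 (Il17f, whose RefSeq start lies inside the longer GENCODE gene), chr6:67491856-67492105 (Il23r), chr17:8235793-8236042 (Ccr6, the first of its annotated starts) and chr7:140218017-140218266 (Cd163l1).
Il17a: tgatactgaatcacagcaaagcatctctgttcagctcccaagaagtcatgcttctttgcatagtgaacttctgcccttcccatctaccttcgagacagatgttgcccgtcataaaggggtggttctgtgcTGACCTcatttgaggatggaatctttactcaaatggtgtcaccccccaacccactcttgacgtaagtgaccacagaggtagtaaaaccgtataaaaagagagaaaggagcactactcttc
Il17f: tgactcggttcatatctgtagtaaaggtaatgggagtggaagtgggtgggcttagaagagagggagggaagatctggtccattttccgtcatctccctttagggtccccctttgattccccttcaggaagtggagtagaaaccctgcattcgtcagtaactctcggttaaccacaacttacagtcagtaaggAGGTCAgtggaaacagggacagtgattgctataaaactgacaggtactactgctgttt
Il23r: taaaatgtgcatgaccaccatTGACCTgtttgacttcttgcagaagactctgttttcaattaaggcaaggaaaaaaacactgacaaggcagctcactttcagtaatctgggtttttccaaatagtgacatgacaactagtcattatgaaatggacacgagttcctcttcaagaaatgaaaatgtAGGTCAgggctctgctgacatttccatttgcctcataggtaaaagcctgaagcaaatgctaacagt
Ccr6: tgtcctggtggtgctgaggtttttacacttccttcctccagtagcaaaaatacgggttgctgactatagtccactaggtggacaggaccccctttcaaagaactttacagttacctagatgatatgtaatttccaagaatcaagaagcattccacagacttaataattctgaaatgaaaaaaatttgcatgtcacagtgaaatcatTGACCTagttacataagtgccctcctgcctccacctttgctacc
Cd163l1: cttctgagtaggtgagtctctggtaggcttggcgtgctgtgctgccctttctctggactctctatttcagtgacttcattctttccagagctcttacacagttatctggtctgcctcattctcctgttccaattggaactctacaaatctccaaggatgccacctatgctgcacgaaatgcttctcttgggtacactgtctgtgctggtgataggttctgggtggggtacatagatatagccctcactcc
The match begins 120 bases before the start in Il17a, 58 in Il17f and 44 in Ccr6, and Il23r has a pair, at 229 and 66 bases. The motif was in 4 of 9 windows of the 7 genes that had one, and in 4607 of 32851 windows of the same length genome-wide (14.0%), and no other motif was searched. A match of letters is a description of the sequence and not a binding site.

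The cytokine genes themselves were sparse. Il17a had 3 UMIs in the γδ CD3 cells of unimmunized mouse 1, 0 in unimmunized mouse 2, 7 in immunized mouse 1 and 0 in the 4 cells of immunized mouse 2. Il17f had 12, 1, 6 and 4 UMIs in the same order. A UMI of either gene was found in 14 γδ CD3 cells, 9 and 1 from the unimmunized mice and 2 and 2 from the immunized mice, and the 7 Il17a UMIs of immunized mouse 1 came from 2 cells that also held its 6 Il17f UMIs. All 14 of these cells had UMIs of Blk and of Maf, 5 had Cd163l1, 5 had Il23r, and 13 lay in the cluster led by Trdc. Outside γδ CD3 cells a UMI of either gene appeared in 3 other CD3 cells, in 2 cells of no class and in 1 C1q macrophage or TBM-like cell.

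Neither cytokine gene had a UMI in αβ CD3 or NK-like cells, and the pooled level in γδ CD3 cells, 7.24 CPM for Il17a and 16.6 CPM for Il17f, was at least 14.4-fold and 33.2-fold higher than in αβ CD3 cells, taking 3 counts over the αβ group as the limit. The Il17a bound rested on immunized mouse 1, without which γδ CD3 cells held 3 Il17a UMIs, no more than that limit, and no bound was given. The Il17f bound without that mouse was 20.3-fold, and the Il17a bound without unimmunized mouse 1 was 24.0-fold. These bounds, and the intervals of ratios below, cover counting error alone.

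The receptor genes were shared more widely among the T cells. Il23r, through which IL-23 acts, was at 94.5, 29.5, 57.6 and 38.6 CPM in the γδ CD3 cells of unimmunized mice 1 and 2 and immunized mice 1 and 2, and at 72.5, 41.4, 33.5 and 22.6 CPM in αβ CD3 cells. The ranges of the classes overlapped. Il1r1, the signalling receptor for IL-1, was at 79.5, 68.8, 98.7 and 193 CPM in γδ CD3 cells and at 50.3, 26.9, 44.4 and 17.8 CPM in αβ CD3 cells, with no overlap. Ccr6, which guides cells along CCL20, was at 186, 118, 132 and 193 CPM in γδ CD3 cells and at 174, 112, 77.1 and 54.9 CPM in αβ CD3 cells, and these ranges overlapped. The fourth γδ value in each series rests on 4 cells. The share of all genes tested without overlap between these classes is not given, so no result was read from that of Il1r1.

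Blk, a kinase that acts below the antigen receptor in B cells and in IL-17-making γδ T cells, was at 504, 334, 370 and 386 CPM in γδ CD3 cells and 194, 151, 110 and 42.0 CPM in αβ CD3 cells. Every γδ library was above every αβ library. The share of all genes tested with such an order is not given, so no result was read from it here or for Sox13. Sox13, an early γδ lineage factor, was at 97.2, 88.4, 57.6 and 77.1 CPM in γδ CD3 cells against 13.5, 16.5, 6.83 and 6.46 CPM in αβ CD3 cells, again without overlap. Maf, needed for the IL-17 fate of γδ cells, was at 867, 589, 765 and 771 CPM against 632, 453, 395 and 268 CPM, and here unimmunized αβ cells of mouse 1 reached above the lowest γδ library.

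Cd163l1, a scavenger receptor gene used as a mark of IL-17-committed γδ cells, varied widely between mice. It was at 723 CPM in the γδ CD3 cells of unimmunized mouse 1, 78.6 CPM in unimmunized mouse 2, 411 CPM in immunized mouse 1 and 0 in the 4 cells of immunized mouse 2, against 19.0, 14.5, 3.41 and 3.23 CPM in αβ CD3 cells. The γδ libraries of at least 10 cells spanned a wide range, 404 ± 322 CPM (SD, n = 3). Over the same 3 libraries Il17f was at 23.3 ± 22.6, Il23r at 60.5 ± 32.6, Il1r1 at 82.3 ± 15.2, Ccr6 at 145 ± 35.7, Blk at 403 ± 89.8, Maf at 740 ± 141 and Sox13 at 81.0 ± 20.8 CPM.

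**Figure D1:**
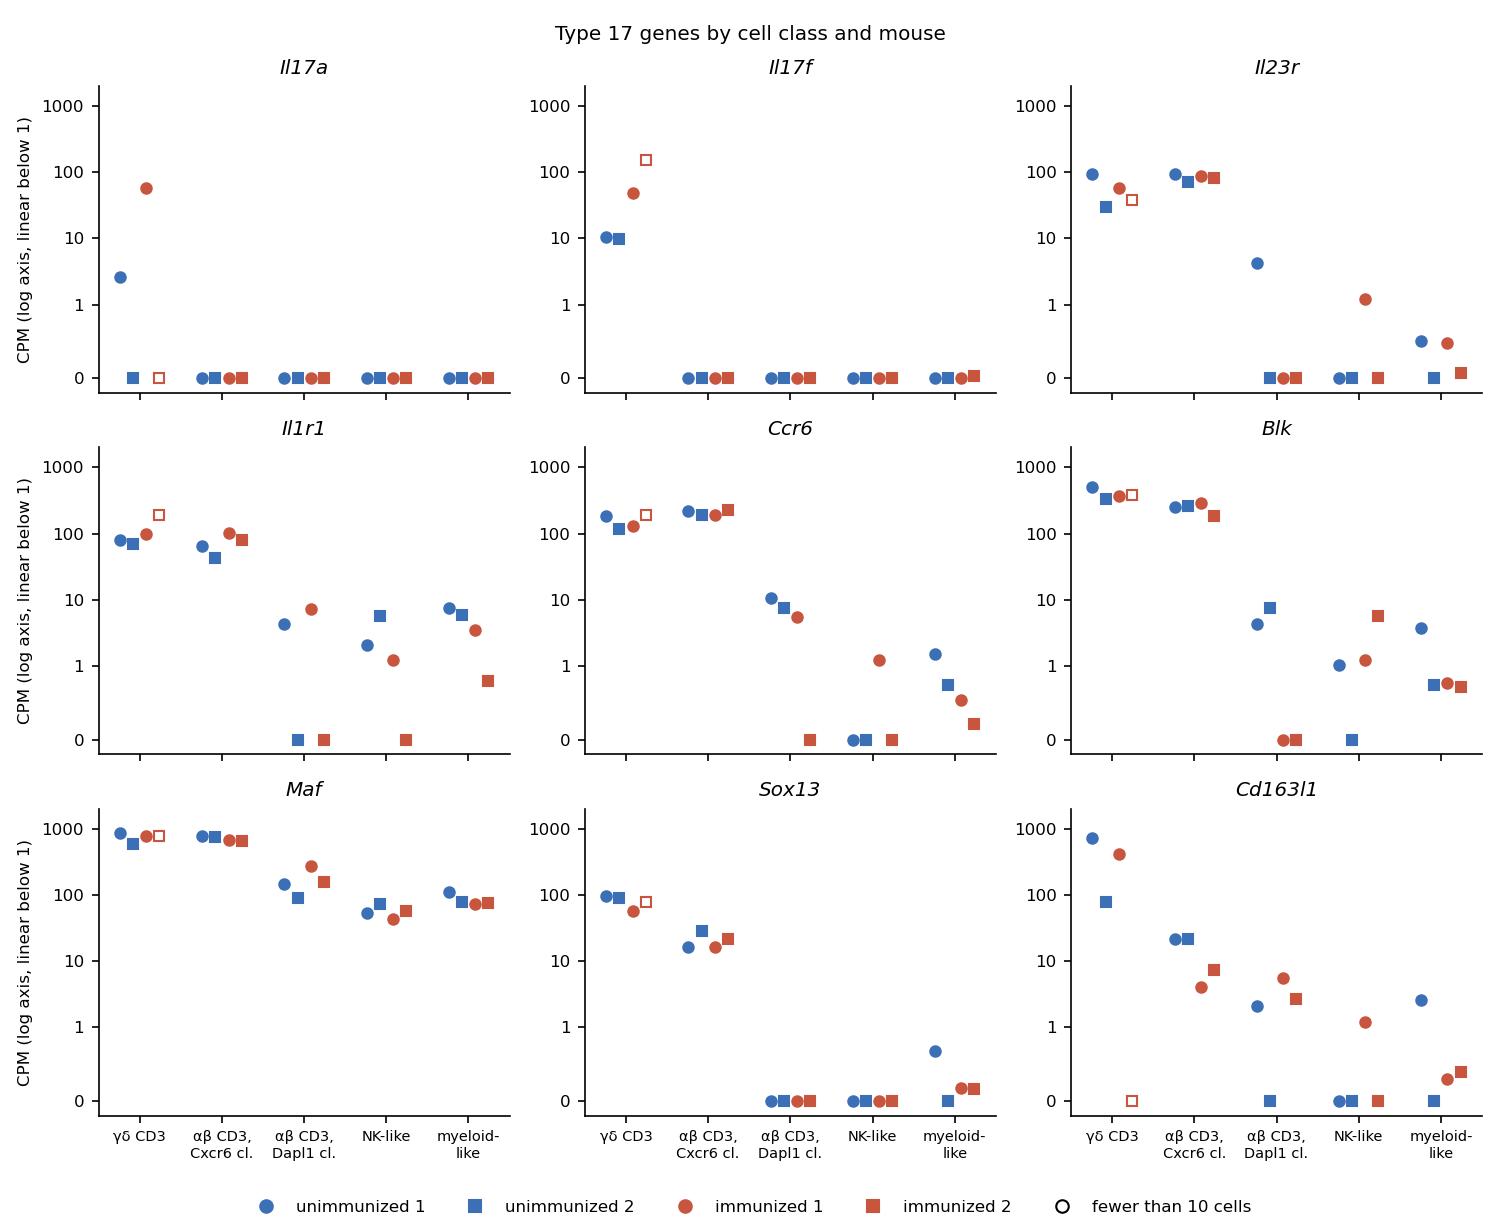
Level of each of the 9 genes in CPM (log axis, linear below 1) by cell class, with a point for each mouse, blue for unimmunized and red for immunized, and open symbols for libraries of fewer than 10 cells. Il17a and Il17f were above 0 in γδ CD3 cells and, but for 1 Il17f UMI in myeloid-like cells, in no other class plotted, whereas Il23r, Il1r1, Ccr6 and Maf in the αβ CD3 cells of the Cxcr6 cluster lay near their γδ levels.

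γδ and αβ CD3 cells were then compared in a fit of all 50 mouse-by-class libraries of at least 10 cells with edgeR's quasi-likelihood test, with adjusted p from Benjamini-Hochberg over all 10890 genes tested. Il17a did not pass the filter on low counts and was not tested. Il17f passed it only through the γδ library of immunized mouse 1, at 49.3 CPM, and had to differ from classes without it. It is therefore given by its counts above and is in no count of calls between classes. Of the other 7 genes, 3 were higher in γδ CD3 cells and none was lower, where 0.386% of all genes tested were called higher and 0.432% lower. Cd163l1 was higher by a log2 fold change of 5.75 ± 0.50 (SE, adjusted p = 1.15e-09), Sox13 by 2.82 ± 0.49 (adjusted p = 0.000758) and Blk by 1.67 ± 0.24 (adjusted p = 3.00e-05). The SE of each fold change, here and below, is its absolute value divided by the square root of the F statistic of its test.

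The other 4 genes were not called between γδ and αβ CD3 cells. Their log2 fold changes by edgeR were 1.10 ± 0.36 for Il1r1 (adjusted p = 0.212), 0.74 ± 0.33 for Maf (adjusted p = 0.541), 0.60 ± 0.42 for Il23r (adjusted p = 0.786) and 0.48 ± 0.29 for Ccr6 (adjusted p = 0.726). The median over the 7 genes was 1.10, beside -0.16 over all genes tested. The γδ libraries of unimmunized mouse 1 held 173 of the 211 cells, and without that mouse Blk (1.56, adjusted p = 0.0686) and Sox13 (2.64, adjusted p = 0.186) were no longer called while Cd163l1 still was, at 4.56.

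Against NK-like cells and against myeloid-like cells Il23r, Il1r1, Ccr6, Blk, Maf, Sox13 and Cd163l1 were higher in γδ CD3 cells. All 7 were called higher against NK-like cells, where 2.94% of all genes tested were called higher and 3.41% lower, and all 7 were called higher against the equal-weight mean of the 9 myeloid-like classes, where 11.1% were called higher and 10.6% lower. Blk differed by 8.02 ± 0.50 from NK-like cells (edgeR, adjusted p = 7.42e-16) and by 8.60 ± 0.40 from myeloid-like cells (adjusted p = 4.39e-21). Ccr6 differed by 8.69 ± 0.78 (adjusted p = 1.01e-10) and 8.50 ± 0.59 (adjusted p = 3.11e-14) in the same order. NK-like cells held few UMIs of Blk and Ccr6, and these SE against them were narrower than counting error alone allows.

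Among these 7 genes Maf had the smallest difference from either class, 3.75 ± 0.41 from NK-like (edgeR, adjusted p = 1.94e-09) and 3.61 ± 0.30 from myeloid-like cells (adjusted p = 2.97e-13). The fitted values for Cd163l1, Sox13, Il23r and Il1r1 ran from 5.53 to 10.29 against NK-like cells and from 6.30 to 9.97 against myeloid-like cells, and those for genes at or near 0 in the other class depend on the prior count. As counts, NK-like cells held 4 UMIs of Il1r1, 3 of Blk, 1 each of Il23r, Ccr6 and Cd163l1 and none of Sox13, Il17a and Il17f. The pooled Blk level was 340-fold that of NK-like cells (95% counting interval 116 to 1654), and Sox13 was at least 66.0-fold higher. Without unimmunized mouse 1 these were 209-fold and at least 28.2-fold, and without immunized mouse 1 the Sox13 bound was 42.1-fold.

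**Figure D2:**
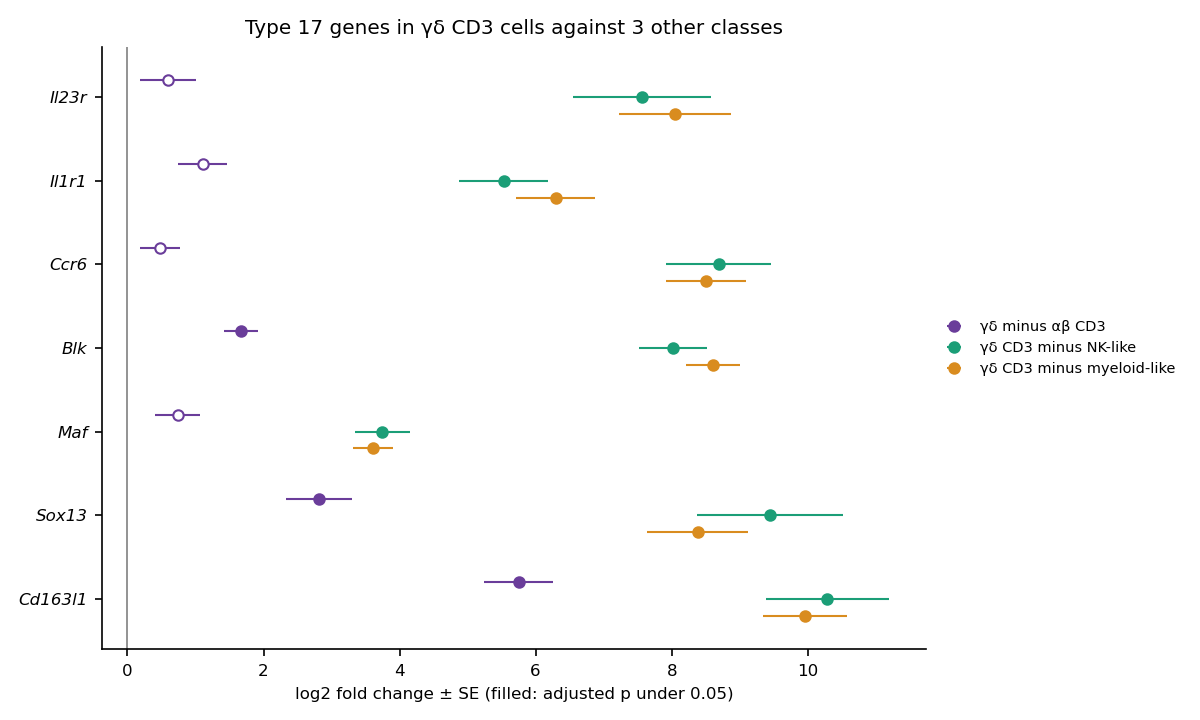
log2 fold change ± SE of the 7 genes other than Il17a and Il17f in γδ CD3 cells against αβ CD3 cells (purple), NK-like cells (green) and myeloid-like cells (orange), from edgeR, filled where the adjusted p was under 0.05. Against αβ CD3 cells Blk, Sox13 and Cd163l1 are filled and Il23r, Il1r1, Ccr6 and Maf, between 0.48 and 1.10, are open. For genes near 0 in NK-like cells the SE can be narrower than counting error.

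The αβ CD3 cells were not uniform, and the genes separated 2 of their clusters as a description, since clusters were made from the same cells. In the cluster led by Cxcr6, a chemokine receptor of tissue-resident lymphocytes, with 497 αβ CD3 cells, Il23r was at 93.7, 72.2, 87.3 and 80.6 CPM in the 4 mice, in the order used above. Ccr6 was at 221, 191, 189 and 227 CPM, Il1r1 at 65.4, 43.3, 104 and 80.6 CPM and Maf at 778, 737, 686 and 645 CPM. The ranges of Il23r, Il1r1 and Maf overlapped those of the γδ CD3 cells. For Ccr6 they overlapped only through the γδ value of immunized mouse 2, which rests on 4 cells. In the cluster led by Dapl1 and Cd8b1, with 239 αβ CD3 cells, Maf was at 146, 90.2, 277 and 156 CPM and none of the others exceeded 10.7 CPM in any mouse.

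Set against the Cxcr6 cluster, γδ CD3 cells had pooled ratios of 0.944 for Il23r (95% counting interval 0.757 to 1.17), 1.18 for Il1r1 (0.937 to 1.49), 0.820 for Ccr6 (0.707 to 0.950) and 1.11 for Maf (1.03 to 1.19). Blk stood at 1.88-fold (1.69 to 2.08), Sox13 at 5.22-fold (3.81 to 7.22) and Cd163l1 at 34.1-fold (26.4 to 44.7). Without unimmunized mouse 1, which held most of the γδ cells, the ratios were 0.540 for Il23r, 0.678 for Ccr6, 1.35 for Blk, 3.44 for Sox13 and 23.4 for Cd163l1. Il17a and Il17f were at least 8.16-fold and 18.8-fold higher in γδ CD3 cells, with no bound for Il17a without immunized mouse 1, as above. Pooled over the mice, the αβ cells of the Cxcr6 cluster carried Zbtb16, which encodes the innate-like T cell factor PLZF, at 88.7 CPM. The pooled level in γδ CD3 cells was 65.1 CPM, and their libraries of at least 10 cells averaged 41.7 ± 27.5 CPM (SD, n = 3). The αβ cells of the Cxcr6 cluster had little Cd4 (6.5 CPM), Cd8a (5.32 CPM) or Cd8b1 (12.1 CPM), also pooled. Of the variable segments of invariant T cells, Trav1 had 7 UMIs and Trav11 had 6 there.

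The γδ CD3 cells were also described by their own receptor segments. Trdv4 had 96 UMIs, Tcrg-V6 42, Tcrg-V4 22, Trdv2-2 14, Tcrg-V5 6 and Trdv1 1. Tcrg-V6 UMIs came from unimmunized mouse 1 (39), unimmunized mouse 2 (1) and immunized mouse 1 (2), and Trdv4 UMIs from unimmunized mouse 1 (88) and immunized mouse 1 (8). The γδ CD3 cells numbered 173 in unimmunized mouse 1, 15 in unimmunized mouse 2, 19 in immunized mouse 1 and 4 in immunized mouse 2, so these counts were not read as differences between mice. NK-like cells held 36 Trdv4 and no Tcrg-V6 UMIs, and the αβ cells of the Cxcr6 cluster held 1 and 4.

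At the level of single cells, a UMI of Maf was found in 91.0% of γδ CD3 cells, of Blk in 82.5%, of Ccr6 in 55.0%, of Sox13 in 45.0%, of Il23r in 39.8% and of Il1r1 in 35.1%. In NK-like cells, a class of similar depth with a median of 5325 UMIs per cell against 5715, the same genes gave 24.2%, 0.906%, 0.302%, 0%, 0.302% and 1.21%. The 0 of 331 for Sox13 allows a share of NK-like cells with a UMI of up to 0.906%. Il17f was found in 11 and Il17a in 5 of the 211 γδ CD3 cells.

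UMIs of at least 3 of the 9 genes were found together in 177 of 211 γδ CD3 cells (83.9%), in 390 of 497 αβ CD3 cells of the Cxcr6 cluster (78.5%), in 189 of 303 other CD3 cells (62.4%), in 1 of 239 of the Dapl1 cluster (0.418%), in 0 of 331 NK-like cells and in 4 of 6004 myeloid-like cells (0.0666%). Within the γδ CD3 cells the share was 93.1% in the cluster led by Trdc and 40.5% of 37 cells elsewhere. After every cell was thinned to 1000 UMIs, which no γδ or αβ CD3 cell failed to reach, at least 3 genes were still found in 24.2% of γδ CD3 cells, 7.04% of the αβ cells of the Cxcr6 cluster and 4.40% of all αβ CD3 cells.

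**Figure D3:**
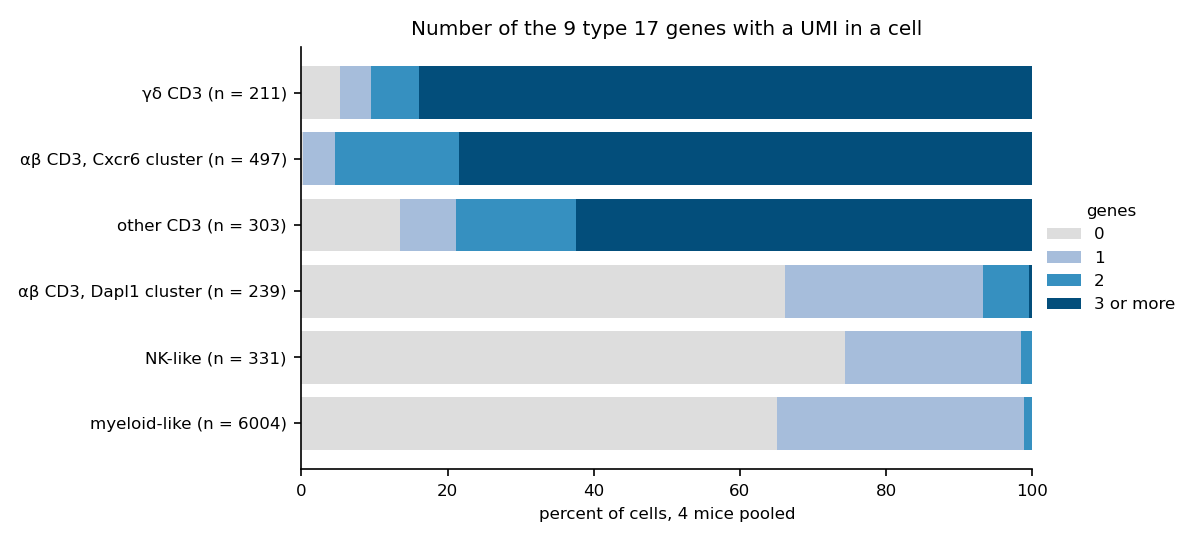
Share of cells (percent, 4 mice pooled) with UMIs of 0, 1, 2 or at least 3 of the 9 genes in each class, as deposited and without thinning. At least 3 genes were found in 83.9% of γδ CD3 cells and 78.5% of αβ CD3 cells of the Cxcr6 cluster, and in 0.418%, 0% and 0.0666% of the Dapl1 cluster, NK-like and myeloid-like cells.

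Among myeloid-like cells Maf was the gene of the set found most broadly, at 84.5 ± 18.5 CPM (SD, n = 4 mice) over the 9 classes together. In C1q macrophage or TBM-like cells it was at 289, 362, 265 and 100.1 CPM in the 4 mice, in the order used above, and immunized mouse 2, the lowest, held 1378 of these cells. In MSM-like cells it was at 247, 62.2, 81.4 and 22.1 CPM. The ranges of these classes overlapped. Il1r1 was at 16.1 CPM over the pooled MSM-like cells (13.1 to 21.8 CPM in the mice), which held 99 of the 141 myeloid Il1r1 UMIs. The other 7 genes were at or below 1.02 CPM over the pooled named myeloid-like classes. The unnamed clusters are not in these values. In that led by Cd209a, Ccr6 averaged 6.91 CPM, Il1r1 3.59 CPM and Blk 3.18 CPM over the mice. In that led by Il22ra2, Il1r1 averaged 6.75 CPM over 3 mice. In those led by Tmem176a, Spon1 and Cxcl10, no gene of the set but Maf averaged above 0.772 CPM. Among the 62 Neutrophil-like cells Cd163l1 had 11 UMIs, all in 1 cell. B-like cells had Ccr6 at 162 CPM and Blk at 139 CPM and no Il17a or Il17f UMI, and both genes are well known in B cells.

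The wider pathway was read from a list of 65 genes in 6 roles, of which 53 were tested. Between γδ and αβ CD3 cells 1 was higher and 2 were lower by edgeR, where 0.386% of all genes tested were called higher and 0.432% lower. The median log2 fold change was 0.24. The gene that was higher was 5830411N06Rik, the neighbour of Cd163l1 (2.38 ± 0.25, adjusted p = 1.56e-08), and those that were lower were Icos, a costimulatory receptor (-1.37 ± 0.27, adjusted p = 0.00228), and Il17rb, a receptor for IL-25 (-3.003 ± 0.688, adjusted p = 0.0205). A comparison list of cytotoxic and type 1 genes, 12 of 13 tested, had 1 call by edgeR, Gzma, higher in γδ CD3 cells (4.11 ± 0.93, adjusted p = 0.0129). Gzma was at 127 ± 111 CPM in γδ CD3 cells (SD, n = 3) and at 8434 CPM in NK-like cells. Of the γδ CD3 cells 5 lay in the NK-like cluster, which Gzma led, and their part in this value was not tested.

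Against NK-like cells 26 of the 53 genes were called higher and 2 lower in γδ CD3 cells. Of all genes tested 2.94% were called higher and 3.41% lower. The median log2 fold change was 2.01 beside -0.16 over all genes. Of 12 markers of innate type 17 cells 11 were higher, led by 5830411N06Rik (10.06), Kcnk1 (7.58), Actn2 (7.48) and the glycerol channel gene Aqp3 (7.06). Of 10 receptors 7 were higher, among them Il17re, a subunit of the IL-17C receptor (9.21), Cxcr6 (6.19), the death-domain receptor gene Tnfrsf25 (6.06) and Il7r, which sustains resting lymphocytes (3.92), and Il18rap was lower (-3.45). Of 14 regulators 5 were higher, including Bcl11b (4.33), Rora (3.74) and Zbtb16 (3.05). In NK-like cells 5830411N06Rik averaged 0.259, Kcnk1 0.518, Actn2 0.563 and Il17re 0.0 CPM. The fitted values of genes so near 0 depend on the prior count.

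Of 4 cytokine genes tested outside the set, 3 were higher than in NK-like cells, Lta (4.44), Csf2, which encodes GM-CSF (2.49), and Ltb (2.01). None of the 5 ligands tested was called, and of 8 receptors and inhibitors 1, Il10rb, was lower (-1.87). The cytotoxic and type 1 list went the other way, with 12 of 12 genes lower in γδ CD3 cells, where 3.41% of all genes tested were called lower. They included Ifng (-5.94), Gzma (-5.76), Prf1, which encodes perforin (-4.47), and Klrd1 (-4.38). Eomes of this list was also among the NK markers of the gate. NK-like cells were chosen by such markers, so this direction was largely fixed by the gate.

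Against myeloid-like cells 31 of the 53 genes were higher and 6 lower. Of all genes tested 11.1% were called higher and 10.6% lower, so the share lower was near that of all genes. The median was 2.61 beside -0.09 over all genes tested. The type 17 receptors accounted for 9 of the higher genes and the regulators for 8. Among the ligands that drive these cells Il1b (-3.14 ± 0.58, edgeR adjusted p = 3.91e-05), Il18 (-0.84 ± 0.25, adjusted p = 0.00947) and Tgfb1 (-0.80 ± 0.20, adjusted p = 0.00200) were lower in γδ CD3 cells and Il1a was higher (1.96 ± 0.57, adjusted p = 0.00947). Of the cytotoxic and type 1 list 10 of 12 were higher in γδ CD3 than in myeloid-like cells.

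The 10 tested genes whose level followed the mean of the 9 genes most closely over the 50 libraries were Tcrg-C2, Kcnk1, Tcrg-C1, Abi3bp, 5830411N06Rik, Tnfrsf25, Ccr10, A130023I24Rik, Actn2 and Cxcr6. Pearson's r ran from 0.958 for Tcrg-C2 to 0.929 for Cxcr6, on log2(CPM + 5), as a description over libraries that share mice and captures. Mean levels in γδ CD3, αβ CD3 and NK-like cells were 260.4, 80.9 and 0.305 CPM for Tcrg-C2, 148, 41.0 and 0.777 CPM for Abi3bp, and 172, 36.2 and 1.76 CPM for Ccr10. For Cxcr6 they were 819, 566 and 9.09 CPM.

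Immunization was examined next, since the study set resting against immunized nodes. γδ CD3 cells made up 6.12% (95% exact binomial interval 5.26 to 7.07) of kept cells in unimmunized mouse 1 and 2.79% (1.57 to 4.57) in unimmunized mouse 2, against 0.469% (0.282 to 0.731) in immunized mouse 1 and 0.0847% (0.0231 to 0.217) in immunized mouse 2. αβ CD3 cells made up 16.97% and 13.59% against 4.07% and 1.65%, and NK-like cells 5.52% and 5.59% against 2.94% and 0.551%. In each class both unimmunized mice were above both immunized mice, and the two-sided exact permutation test gave p = 0.3333, the smallest it can give with 2 mice against 2. In such data fewer cells of a type and a larger number of other cells cannot be told apart, since a share of sorted cells moves with every other cell in the gate, and the immunized mice had 1974 and 2769 named myeloid-like cells against 1047 and 214.

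Within the CD3 cells γδ cells took 19.68% and 13.04% in unimmunized mice against 8.76% and 4.04% in immunized mice. The Cxcr6 cluster took 76.7% and 60.3% of αβ CD3 cells without immunization and 40.6% and 23.1% after it (exact permutation p = 0.3333). As a share of kept cells, the Cxcr6 cluster was 19.4% and 13.2% against 2.15% and 0.487%, and the Dapl1 cluster, which held little of the programme, was 3.82% and 4.66% against 2.27% and 1.33%. The ranges of neither cluster overlapped between conditions.

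**Figure D4:**
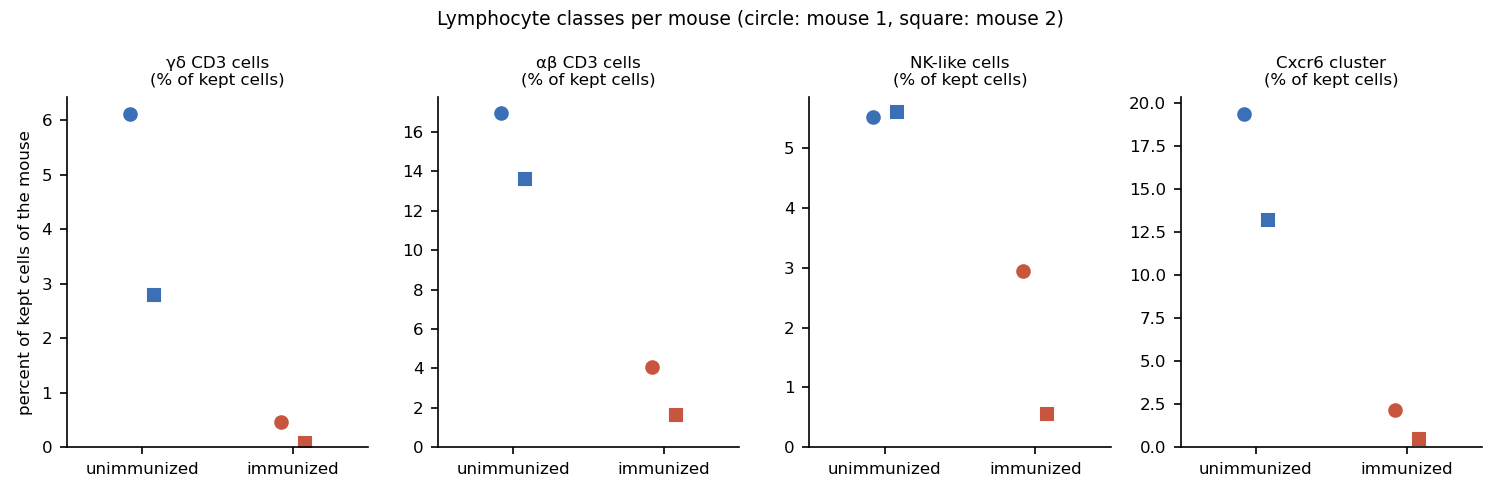
Share of the kept cells of each mouse (percent, axes from 0) that were γδ CD3, αβ CD3, NK-like or in the Cxcr6 cluster, unimmunized in blue and immunized in red. Both unimmunized mice lie above both immunized mice in each panel, with γδ CD3 cells at 6.12% and 2.79% against 0.469% and 0.0847%.

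In γδ CD3 cells themselves none of the 8 genes tested was called by edgeR between immunized and unimmunized mice, where 0.00918% of all genes tested were called higher and 0.0% lower, and 581 of 10890 genes had an unadjusted p under 0.05. The gene called there, Klra4, is an NK receptor gene and was on the NK marker list of the gate. It is named here after its value was seen. The comparison had 1 immunized library of 19 cells, whose spread was assumed to be that of the other classes, because immunized mouse 2 gave 4 γδ CD3 cells. Il17f, 1 of the 8 genes, passed the filter on low counts only through this immunized library, where it was high. Its value (2.25 ± 1.08) is thus no test and was not read. The other 7 ran from -0.68 for Sox13 to 0.38 for Il1r1.

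In αβ CD3 cells none of the 7 genes with UMIs there was called, where 0.579% of all genes tested were called higher and 0.275% lower. All 7 had values below 0, with a median of -0.92 beside 0.02 over all genes tested. Cd163l1 stood at -2.24 ± 0.92 (adjusted p = 0.343), Ccr6 at -0.97 ± 0.27 (adjusted p = 0.0688), Blk at -0.95 ± 0.27 (adjusted p = 0.0819) and Il23r at -0.91 ± 0.36 (adjusted p = 0.328). Their levels in the unimmunized mice lay above those in the immunized mice for each of these 4 genes. The share of all genes with such an order between so few mice is not given, and no result was read from it. These calls depended on the settings, and 14 of the 140 values computed under alternatives passed the threshold, each lower in immunized mice. With the mouse as a replicate block, Ccr6 (-0.99, adjusted p = 0.0203) and Blk (-0.94, adjusted p = 0.0363) were called. With no filter on low counts Ccr6 (-0.99, adjusted p = 0.00989), Blk (-0.97, adjusted p = 0.00645) and Cd163l1 (-2.27, adjusted p = 0.00470) were called. With only the αβ libraries fitted Ccr6, Blk, Cd163l1 and Il23r were all called, Il23r at -0.98 (adjusted p = 0.0308). Relative log expression scaling also called Ccr6 (adjusted p = 0.0416) and Blk (adjusted p = 0.0452), and capture 1 alone called Blk (-1.17, adjusted p = 0.0262). Without immunized mouse 1 Blk was called (-1.91, adjusted p = 0.00177), and without unimmunized mouse 2 Cd163l1 was called (-2.36, adjusted p = 0.0319).

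Of the 53 pathway genes tested in αβ CD3 cells, 5 were lower and 1 higher after immunization. Of all genes tested 0.275% were called lower and 0.579% higher. Il17re (-1.47 ± 0.27, edgeR adjusted p = 0.00260), Il2ra (-1.25 ± 0.28, adjusted p = 0.0183), Il18r1 (-1.03 ± 0.21, adjusted p = 0.00652), Aqp3 (-1.45 ± 0.37, adjusted p = 0.0495) and Il22ra2 (-1.66 ± 0.39, adjusted p = 0.0206) were lower. Il22ra2, a decoy receptor for IL-22, was also on the marker list of MSM-like cells. Batf, an activation factor, was higher (1.32 ± 0.26, adjusted p = 0.00387), as were Ifng (4.31 ± 1.02, adjusted p = 0.0298) and Cxcr3 (2.26 ± 0.44, adjusted p = 0.00387) of the type 1 list. The MSM markers summed to 184 and 137 CPM in the αβ CD3 cells of unimmunized mice and to 83.3 and 29.1 CPM in those of immunized mice, with 4 to 6 of the 7 above 0, and the part of this RNA in the Il22ra2 value was not tested.

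The αβ comparison was repeated inside the Cxcr6 cluster, a comparison added after the data were seen. Its libraries held 368 and 44 αβ cells in unimmunized mice 1 and 2 and 67 and 18 in immunized mice 1 and 2. None of the 7 genes with UMIs in αβ cells was called there, where 0.0098% of 10206 genes tested were called higher, a single gene, Gzmb (5.05 ± 0.94, edgeR adjusted p = 0.0418), and 0.0% lower, with 394 at an unadjusted p under 0.05. Ccr6 differed by 0.01 ± 0.28, Blk by 0.06 ± 0.26, Il23r by 0.04 ± 0.37 and Maf by -0.12 ± 0.39. Whether the smaller share of this cluster among the αβ cells of immunized mice accounts for the αβ values was not tested. With the Dapl1 cluster left out of the αβ cells, Ccr6 was at -0.42 and Blk at -0.41. Inside the Cxcr6 cluster Cd163l1 stood at -2.09 ± 1.24 and Il1r1 at 0.76 ± 0.36, both with an adjusted p of 1.0. Of the pathway list none of 54 genes tested was called in this cluster, with a median log2 fold change of -0.26.

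When γδ, αβ and other CD3 cells of a mouse were summed, also after the data were seen, 2 of the 7 genes tested were called lower in immunized mice by edgeR, Cd163l1 (-2.28 ± 0.49, adjusted p = 0.00997) and Blk (-1.05 ± 0.25, adjusted p = 0.0181), where 1.14% of 11217 genes tested were called higher and 0.383% lower. Sox13 (-1.57 ± 0.45, adjusted p = 0.0761), Ccr6 (-0.79 ± 0.24, adjusted p = 0.102) and Il23r (-0.74 ± 0.33, adjusted p = 0.373) were not called. γδ cells were 19.68% and 13.04% of the cells summed without immunization and 8.76% and 4.04% after it. The part of this difference in mixture in the Cd163l1 and Blk calls was not tested. Without unimmunized mouse 1 Cd163l1 was at 0.10 and neither gene was called, and without immunized mouse 2 Blk was not called (-0.76, adjusted p = 0.0968). Without immunized mouse 1 Ccr6 was also called (-1.05, adjusted p = 0.0479), as it was with the mouse as a replicate block (-0.80, adjusted p = 0.041). With no filter on low counts both Ccr6 (-0.82, adjusted p = 0.0353) and Sox13 (-1.60, adjusted p = 0.0255) were called. Neither Blk nor Cd163l1 was called from capture 2 alone, and DESeq2 did not call Blk (adjusted p = 0.659).

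**Figure D5:**
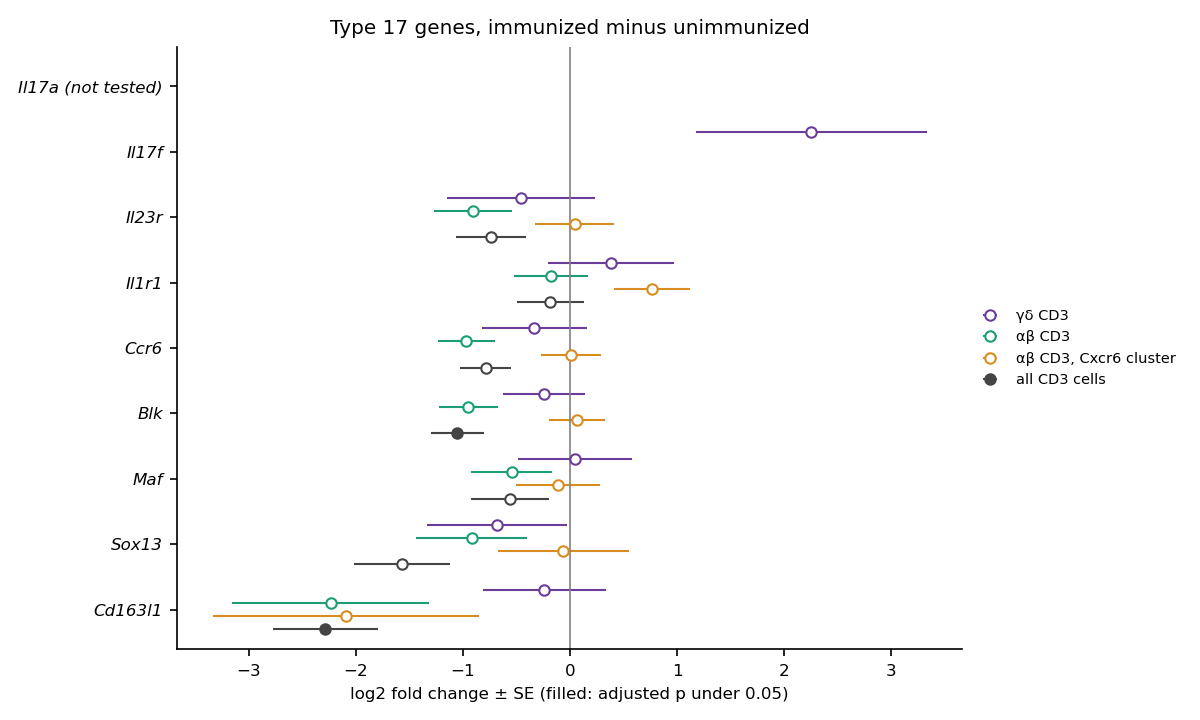
log2 fold change ± SE of each gene between immunized and unimmunized mice, from edgeR, in γδ CD3 cells (purple), αβ CD3 cells (green), αβ CD3 cells of the Cxcr6 cluster (orange) and all CD3 cells together (dark grey), filled where the adjusted p was under 0.05. The filled points are Blk and Cd163l1 in all CD3 cells, and the Cxcr6 cluster lies within 0.12 of 0 for Il23r, Ccr6, Blk, Maf and Sox13. Il17f in γδ CD3 cells passed the filter on low counts only through the immunized library, so its value is no test.

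The effects of immunization in γδ and αβ CD3 cells were also compared with each other. None of the 7 genes with UMIs in both classes was called by edgeR for the difference, where 0.0% of all genes tested were called higher and 0.00918% lower, with 531 at an unadjusted p under 0.05. The gene called, Plac8, was named after its value was seen. The γδ minus αβ difference was 1.99 ± 1.12 for Cd163l1 (adjusted p = 0.974), 0.71 ± 0.47 for Blk (adjusted p = 0.975) and 0.64 ± 0.57 for Ccr6 (adjusted p = 0.980). Il17f is left out of this comparison, since αβ cells had no UMI and its fitted difference was the γδ value alone.

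The share of cells with at least 3 of the 9 genes, after thinning to 1000 UMIs, was 24.9% and 13.3% of γδ CD3 cells in unimmunized mice 1 and 2 and 26.3% in immunized mouse 1, with 1 of 4 cells in immunized mouse 2. Without thinning it was 89.0% and 73.3% against 52.6% and 50.0%, the opposite order, so no order was read from it. In αβ CD3 cells the thinned share was 5.21% and 4.11% against 3.64% and 1.28% and the unthinned share 64.4% and 41.1% against 38.2% and 21.8%, with an exact permutation p of 0.3333 for each, the smallest possible. Median UMIs per γδ CD3 cell were 5138 to 6061 in the 4 mice.

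The antibody counts, which the gates on UMIs did not use, were read as centred log ratios per cell averaged within each mouse. Each ratio is relative to the 6 antibodies of the same cell. A cell with lower counts of the others thus has a higher CD169 ratio at equal CD169 counts, and the amount of surface CD169 was not compared. CD169 was at 1.61 ± 0.18 in γδ CD3 cells (SD, n = 4) against 1.43 ± 0.17 in NK-like and 0.796 ± 0.344 in myeloid-like cells. The γδ mean of immunized mouse 2, here and in each antibody test below, rests on 4 cells. γδ CD3 cells were above myeloid-like cells in 4 of 4 mice, by 0.816 on average (0.623 to 1.25), and above NK-like cells in 4 of 4, by 0.181 (0.0655 to 0.354), each with p = 0.125, the smallest the two-sided exact sign-flip test over 4 mice can give. F4/80 (-0.190), CD11c (-0.213) and Ly-6c (-0.511) were below the myeloid-like cells in 4 of 4 mice (exact p = 0.125 each), and CD68 and Ly-6g differed in both directions between mice (exact p = 0.75 and 0.375). Over the 18 comparisons of 6 antibodies with 3 classes the smallest adjusted p was 0.321 (exact test, Benjamini-Hochberg). Siglec1 mRNA, which is scaled to all UMIs and not to the antibodies, was at 7.96 CPM in γδ CD3 against 28.8 CPM in myeloid-like cells, pooled over the mice.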

How the data were processed

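The authors mapped the 3′ reads of both captures to an mm10 reference with Cell Ranger 4.0.0, joined the captures and deposited raw UMI counts per gene and barcode. Hashtag and antibody counts, deposited without normalization, came from CITE-seq-count (version not given in the sources used here). The antibody and hashtag tables did not carry the capture in the barcode name. The genes of the programme and the gene lists were chosen with earlier results of these data known.

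Barcodes with over 25% mitochondrial UMIs were left out (594), as were 1238 without tags, and a cell was given to a mouse when at least 80% of at least 10 hashtag counts were of its hashtag, which also removed doublets of different mice. Doublets within a mouse were not removed, and Scrublet scores served for an alternative with likely doublets removed. Cells were clustered with scanpy 1.11.5 (3000 variable genes, 30 components, 15 neighbours, leidenalg 0.10.2 at resolution 1), and clusters were named from listed markers. CD3 cells had at least 2 UMIs of Cd3d, Cd3e and Cd3g, and NK-like cells had no CD3 UMI and at least 2 UMIs of NK markers.

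UMIs were summed by mouse and class, and the 50 libraries of at least 10 cells (55061 to 20173103 UMIs) were fitted together with edgeR 4.0.16 (TMM, filterByExpr, quasi-likelihood test, R 4.3.3), with both conditions weighted equally between classes and calls made at an adjusted p under 0.05. Fits were tested on simulated data. DESeq2 1.42.0 and Seurat 5.3.0 (HTODemux) gave alternatives, along with another scaling, no filter, other gates, each capture alone and each mouse left out. Pooled ratios without each mouse were added after the data were seen. Shares were compared by exact permutation tests and antibody signals by exact sign-flip tests over mice (scipy 1.17.1).

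Classes of a mouse came from the same animal, which pairs them. Across 7773 genes of at least 10 CPM on average, the deviations of a mouse's lymphocyte classes from their group means had correlations of -0.059 to 0.086 over 9 pairs of classes. Counting error in small libraries lowers such correlations, so they cannot show whether the pairing mattered. Genes named beyond the programme were up to 4 of each role with the largest called change, the 10 of most similar level, and those said to be named after their values were seen. One gene of the regulator list was counted with its list and is not reported here by name.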

Additional observations from a re-analysis of the deposited data

Results flagged for a closer look

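Cells outside the compared classes held UMIs of the programme. A cluster of 288 cells, unnamed by its markers and led by Nrgn, Gzmc, Xcl1 and Cd160, took no part in any comparison. Its highest-scoring marker list was that of group 3 innate lymphoid or lymphoid tissue inducer cells (score 2.223). None of that list was among its 10 leading genes. Its pooled levels were 22.95 CPM for Il23r, 28.44 for Il1r1, 77.33 for Ccr6, 11.47 for Blk, 158.7 for Maf, 2.993 for Sox13 and 18.46 for Cd163l1, each above the limit that a count of 0 allows. It also held 51 of the 78 cells with CD3 UMIs that lay outside the T-like and NK-like clusters. The 10 stromal-like cells had Il1r1 at 283.1 CPM, from 22 UMIs, and Maf at 128.7 CPM. The 67 cells of an unnamed cluster led by Pclaf averaged 32.7 CPM for Blk and 20.4 CPM for Ccr6 over 3 mice.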

How the results depend on the processing

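The differences between γδ CD3 cells and the other classes kept their direction for the 7 genes other than Il17a and Il17f under every alternative run, including other scalings, gates, filters and each mouse left out. Against αβ CD3 cells the lowest log2 fold changes were 0.002 for Ccr6 and 0.117 for Il23r, so little or no difference remained for these uncalled genes. Of 140 values against αβ CD3 cells 136 kept their side of the threshold, as did 140 of 140 against NK-like and 140 of 140 against myeloid-like cells. Against αβ CD3 cells Maf was called with no filter on low counts (0.69) and with only the libraries compared (0.74). DESeq2 left out the adjusted p of Il17f against myeloid-like cells and of Cd163l1 in all CD3 cells, and these gave no verdict.

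Counts of called genes moved more, and the cause was not tested. From 89 genes between γδ and αβ CD3 cells the count went to 34 with DESeq2, 144 with no filter, 136 with only the libraries compared, 57 with a γδ gate that used the Tcrg-C genes and 32 in capture 2 alone. From 691 against NK-like cells it went to 407 with DESeq2, 370 in capture 2, 831 without the high-UMI cluster and 944 with the Tcrg-C gate, and from 2365 against myeloid-like cells to 1381 in capture 2 and 2948 with the Tcrg-C gate. For immunization in αβ CD3 cells, 93 became 3 with DESeq2, 266 with no filter, 375 with only the libraries compared, 49 with HTODemux and 3 in capture 2. In all CD3 cells, 171 became 26 with DESeq2, 349 with no filter, 82 in capture 1 and 78 in capture 2. In γδ CD3 cells, 1 became 10 with no filter, 27 with only the libraries compared, 2 with a CD3 gate of 3 UMIs, 4 with HTODemux, and 0 with DESeq2 (260 genes at an unadjusted p under 0.05), a CD3 gate of 1 UMI (584) or the Tcrg-C gate (530). For the difference between γδ and αβ effects, 1 became 2 with DESeq2, 19 with no filter, 3 with HTODemux and 0 in each of 4 others (341 to 539 by edgeR at an unadjusted p under 0.05). In the Cxcr6 cluster 1 became 4 with no filter, 0 with DESeq2 (126 unadjusted) and 0 in capture 2 (261 unadjusted).

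With the mouse as a replicate block the counts for immunization were 215 in αβ, 284 in all CD3 and 3 in γδ CD3 cells, and 2 for the difference between effects. The block changed no call of a gene of the programme other than Ccr6 and Blk in αβ CD3 cells and Ccr6 in all CD3 cells. Under it the uncalled γδ values of Maf (-0.17) and Cd163l1 (0.80) and the Cxcr6 cluster values of Ccr6 (-0.027) and Sox13 (0.074) changed sign.

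Without each mouse in turn the counts ran from 14 to 134 (γδ against αβ), 263 to 777 (NK-like), 1173 to 2715 (myeloid-like), 0 to 4 (γδ immunization), 1 to 110 (αβ), 0 to 3 (difference), 0 to 4 (Cxcr6 cluster) and 1 to 212 (all CD3 cells). Uncalled values that changed sign ran in γδ CD3 cells from -0.72 to 1.05 for Il23r, -0.50 to 0.25 for Ccr6, -0.45 to 0.24 for Blk, -0.19 to 0.47 for Maf and -0.82 to 2.48 for Cd163l1. They ran in αβ CD3 cells from -1.12 to 0.46 for Il1r1, and in the Cxcr6 cluster from -0.14 to 0.35 for Il23r, -0.092 to 0.20 for Ccr6, -0.49 to 0.29 for Blk and -0.56 to 0.17 for Sox13. In all CD3 cells the uncalled Il1r1 value ran from -0.54 to 0.055. Cd163l1, which was called there in the main fit, ran from -4.34 to 0.10 and so also changed sign.

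Other sign changes of uncalled values were these. In γδ CD3 cells Il1r1 was at -0.17 in capture 2 and -0.037 without the high-UMI cluster, Ccr6 at 0.094 with the Tcrg-C gate and Cd163l1 at 0.12 with DESeq2. Maf there was at -0.002 and -0.035 with CD3 gates of 1 and 3 UMIs, -0.12 with HTODemux, -0.038 at 10% mitochondrial UMIs, -0.34 in capture 2, -0.018 without likely doublets, -0.037 without the high-UMI cluster and -0.11 with libraries of at least 3 cells. In αβ CD3 cells Il1r1 was at 0.31 without the Dapl1 cluster. For the difference between effects in capture 2, Il23r was at -0.78, Il1r1 at -0.042, Ccr6 at -0.60, Blk at -0.29 and Sox13 at -0.58, and without the Dapl1 cluster Il23r was at -0.067 and Sox13 at -0.25, with Sox13 at -0.019 under HTODemux. In the Cxcr6 cluster Il23r was at -0.10 and Blk at -0.087 in capture 1, Ccr6 at -0.021 with no filter and -0.21 in capture 2, and Sox13 at 0.40 in capture 2. The change in the share of γδ CD3 cells with at least 3 genes was 6.56 percentage points after thinning and -29.9 without it.

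The class shares of kept cells and the differences of CD169, F4/80, CD11c and Ly-6c from myeloid-like cells and of CD169 from NK-like cells kept their direction under the alternatives run. The CD68 difference from myeloid-like cells (-0.024) was 0.032 with HTODemux and 0.022 without unimmunized mouse 2. γδ immunization could not be fitted without immunized mouse 1 or from capture 1, where no immunized γδ library remained. The depth limits Il17a and Il17f most, with 10 and 23 UMIs in all γδ CD3 cells, and no order between conditions was read from them.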
